A study of Mus musculus with 14 samples.

Results

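Cells carrying green fluorescent protein (GFP) were sorted from the subependymal zone (SEZ) and from the diencephalon of adult mice, and their RNA was compared on 6 of the 14 arrays of the series. The arrays were chosen by their titles, 2 labelled SEZ_GFP and 4 labelled DIEC_GFP. All came from hGFAP-eGFP mice of 8 weeks, a line in which the human GFAP promoter drives enhanced GFP, and both groups were gated by fluorescence-activated cell sorting on GFP alone. By the labels they therefore share the transgene, the age and the gate, and differ in the region dissected. The labels call SEZ_GFP neural stem cells and DIEC_GFP astrocytes. The other 8 arrays, also of the SEZ of such mice, were sorted for GFP together with prominin (SEZ_GFPprom, 4 arrays), for prominin (SEZ_Prom, 2 arrays) or for CD24 (SEZ_CD24, 2 arrays), and entered the estimate of the spread. All 18193 genes with a probe set of a single symbol were tested.

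The SEZ lines the lateral ventricle and is the largest neurogenic zone of the adult rodent brain. Its stem cells are astrocyte-like and express GFAP. They give rise to fast-dividing progenitors and then to neuroblasts, which migrate to the olfactory bulb and become mostly GABAergic interneurons. The adult diencephalon, which holds thalamus and hypothalamus around the third ventricle, is largely non-neurogenic, and its GFAP-promoter activity is found mainly in astrocytes and in cells of the ventricular wall. Comparing the GFP-positive cells of both regions asks how GFAP-promoter-active cells of a neurogenic zone differ from those of a region with little neurogenesis.

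Across genes, which are not independent replicates, the 2 SEZ_GFP arrays correlated at r = 0.979, the DIEC_GFP arrays with each other at 0.942 to 0.963, and arrays of different groups at 0.877 to 0.913. The labels give the arrays of a group as biological replicates without saying whether each came from its own animals. A p-value here therefore speaks to the spread among arrays, which may be technical, and the small number of arrays limits the precision. The log2 ratio of 3′ to 5′ signal of the control transcripts, which rises as RNA is shortened, was 4.73 ± 0.14 (SD, n = 2) in SEZ_GFP and 5.40 ± 0.29 (SD, n = 4) in DIEC_GFP, and the groups did not overlap. DIEC_GFP replicate 4 stood apart from the other DIEC_GFP arrays. It held little of the neuronal transcripts Snap25 (20 against 438 to 552) and Nefl (36 against 890 to 1978), less of several astrocyte transcripts such as Slc4a4 (2261 against 5814 to 6449), and more Mki67 (151 against 22 to 28). Xist, the RNA of the inactive X chromosome, stood at 38 and 83 in SEZ_GFP and 2668, 1046, 730 and 73 in DIEC_GFP, low on replicate 4 and on both SEZ_GFP arrays (adjusted p = 0.128, and 0.0215 without replicate 4). Whether the groups differed in the sex of the animals was not tested, nor was the part of sex or of Xist in the results.

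Of the 18193 genes, 1020 (5.61%) were higher and 1282 (7.05%) lower in SEZ_GFP, together 12.7%, by limma with Benjamini-Hochberg adjustment at a threshold of 0.05. At least a 2-fold difference was reached by 904 (4.97%) of the higher and 1192 (6.55%) of the lower genes, and the median difference of all genes was 0.0049 on the log2 scale. Both SEZ_GFP arrays lay above all DIEC_GFP arrays for 2860 genes (15.7%) and below all of them for 2981 (16.4%). Groups that lie apart are thus common with 2 arrays against 4, and where the text says so it describes the arrays and is no test. Without any of the 4 DIEC_GFP arrays 1854 to 2690 genes passed, the highest count being that without replicate 4. Without SEZ_GFP replicate 1 the count was 1087 (450 higher, 637 lower) and without replicate 2 it was 719 (348 higher, 371 lower). In these fits the lone SEZ_GFP array is assumed to vary like the other groups. With the 3′ to 5′ ratio as a covariate 1296 genes passed, 556 higher and 740 lower. Of the 111 genes named in the text that passed, 110 also passed without DIEC_GFP replicate 4, the exception being Irx5, and 99 with the covariate. RNA came from many cells per array, so fewer cells of a type and less RNA per cell cannot be told apart in any of the results.

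**Figure D1:**
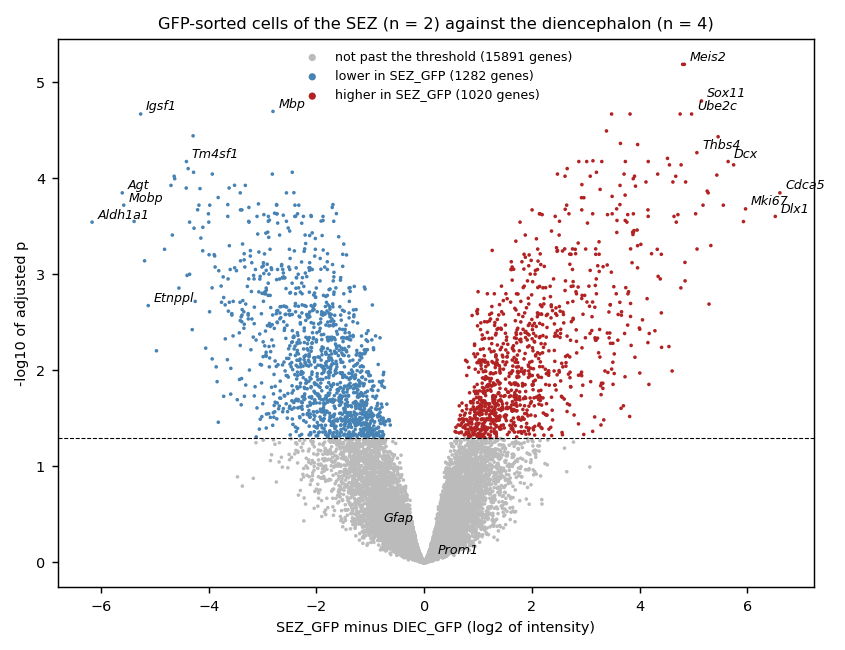
Difference of each of the 18193 genes between SEZ_GFP (2 arrays) and DIEC_GFP (4 arrays) on the log2 scale (horizontal) against the negative log10 of the adjusted p (vertical). Each point is a gene, coloured points passed the threshold of 0.05, and neurogenic and cell cycle genes lie at the far right, glial and ependymal genes at the far left.

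The genes behind the gates come before the rest. Gfap, whose human promoter drives the GFP, had intensities of 193 and 218 in SEZ_GFP and 572, 323, 403 and 263 in DIEC_GFP. Every SEZ_GFP array lay below every DIEC_GFP array, but the difference of -0.87 ± 0.58 (SE) on the log2 scale did not pass (adjusted p = 0.409). The GFP transcript itself was not analysed here. Prom1, which encodes prominin, stood at 243 and 347 against 271, 224, 263 and 290, overlapping (adjusted p = 0.896). Cd24a, a surface protein found on neuroblasts and ependymal cells, was higher in SEZ_GFP at 1884 and 1565 against 496, 868, 718 and 391, by 2.91-fold (adjusted p = 0.0243). It missed the threshold without SEZ_GFP replicate 1 (adjusted p = 0.173) or 2 (0.12) and without DIEC_GFP replicate 1 (0.0553), in a fit of SEZ_GFP and DIEC_GFP alone (0.0542), and when the 3′ to 5′ ratio was a covariate (0.118).

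Genes of migrating neuroblasts were higher in the SEZ cells. This list and those below were chosen with earlier results of these data known, so their counts describe these data and are no independent support. Of 25 neuroblast markers measured, 22 were higher in SEZ_GFP, 0 lower and 3 did not pass, with a median difference of 3.13. Dcx, a microtubule protein of migrating immature neurons, had intensities of 3340 and 3463 in SEZ_GFP and 102, 43, 50 and 98 in DIEC_GFP. The arrays of the groups were separated by more than an order of magnitude, and the difference was 5.64 ± 0.48 (SE), 50-fold (adjusted p = 6.67e-05). Of the 3 other probe sets of Dcx 1 passed, in the same direction. The difference of Dcx ran from 2.41 to 6.29 across the alternative settings. Sox11, a transcription factor of immature neurons, stood at 3764 and 3978 against 117, 86, 83 and 170, a difference of 5.15 ± 0.32 (SE) (adjusted p = 1.56e-05). All 5 other probe sets of Sox11 passed in the same direction. Igfbpl1, a secreted protein of newborn neurons, was 14.1-fold higher and the cyclin gene Ccnd2, needed for division of neuronal progenitors, 12.5-fold higher. The neuronal tubulin Tubb3 stood at 568 and 767 against 60, 45, 41 and 37. The homeodomain gene Pbx3 was 8.74-fold and Cd1d1, an antigen-presenting molecule that is no member of the list, 38.1-fold higher. The members that did not pass were Stmn1 (0.46, adjusted p = 0.104), Robo2 (1.65, adjusted p = 0.0565) and Celf4 (1.50, adjusted p = 0.321). Stmn1 (adjusted p = 0.0422) and Robo2 (0.0498) passed without DIEC_GFP replicate 4, and Robo2 without SEZ_GFP replicate 1 (0.00259). Stmn1 also passed without probe sets marked as sharing sequence (1.52, adjusted p = 0.00375) and with the mean of its probe sets (0.99, adjusted p = 0.00632), and Celf4 passed with the 3′ to 5′ covariate (4.03, adjusted p = 0.0199). Between 16 and 24 members passed when an array was left out. The summed intensity of the 25 genes was 46867 to 52273 in SEZ_GFP and 11811 to 12862 in DIEC_GFP.

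Cell division genes were higher too, with a larger median difference than the neuroblast list. Mitosis genes encode the spindle, kinetochore and anaphase machinery, and 30 of 31 were higher in SEZ_GFP, with a median difference of 4.12. Their summed intensity was 17390 to 20522 in SEZ_GFP and 1192 to 1719 in DIEC_GFP. Mki67, the proliferation antigen, stood at 2000 and 2918 in SEZ_GFP and 28, 24, 22 and 151 in DIEC_GFP. DIEC_GFP replicate 4 was the highest of its group and still more than an order of magnitude under both SEZ_GFP arrays, for a difference of 5.97 ± 0.64 (SE) (adjusted p = 0.000207). Top2a, the topoisomerase that untangles replicated chromosomes, stood at 1266 and 1606 against 39, 34, 14 and 64 (43.2-fold, adjusted p = 9.23e-05). Ube2c, the ubiquitin-conjugating enzyme of the anaphase-promoting complex, stood at 719 and 768 against 18, 15, 34 and 35 (31.2-fold, adjusted p = 2.13e-05). Both genes were apart between the groups. Cks2, a small subunit of cyclin-dependent kinases, was 60.8-fold, Cenpa, the histone variant of centromeres, 26.9-fold and the cytokinesis motor Kif23 17.9-fold higher. Neither of the 2 other probe sets of Kif23 passed. Top2a and Cenpa each had 2 other probe sets, of which 1 passed. Nuf2, of the outer kinetochore, was the member that did not pass, at 260 and 322 against 288, 379, 511 and 344. Leaving out an array left 22 to 30 members past the threshold.

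DNA replication genes were higher in 25 of 26, with a median difference of 2.83, and in 16 without SEZ_GFP replicate 2. Mcm6, a subunit of the replicative helicase, stood at 894 and 809 in SEZ_GFP and 28, 27, 35 and 33 in DIEC_GFP. The groups were far apart and each was tight, with a difference of 4.80 ± 0.27 (SE), 27.8-fold (adjusted p = 6.48e-06). Mcm5, of the same helicase, was 46.9-fold, the clamp loader subunit Rfc4 13.3-fold, the licensing factor Cdt1 24.9-fold, and Uhrf1, which carries DNA methylation through replication, 17.8-fold higher. Pclaf, a partner of the sliding clamp, and Rrm2, which makes deoxyribonucleotides, were 43.9-fold and 39.1-fold higher. Mcm6, Mcm5, Cdt1 and Pclaf each had 2 other probe sets, of which 1 passed. Both of the 2 other probe sets of Rrm2 passed. Orc6, of the origin recognition complex, did not pass (1.12, adjusted p = 0.0545, and 0.0394 without DIEC_GFP replicate 4), though its arrays did not overlap. Among 20 regulators of cycle entry and exit 10 were higher and 0 lower (4 higher without SEZ_GFP replicate 2), with the kinases Cdk6 at 1426 and 2037 against 247, 204, 88 and 152 and Cdk4 at 1677 and 1695 against 364, 200, 248 and 362. Of 17 chromatin and DNA methylation regulators 10 were higher and 0 lower (5 without SEZ_GFP replicate 2). H2az1, a histone variant at active promoters, was 6.3-fold higher. The higher regulators of cycle entry and exit were not only kinases and cyclins. Genes of inhibitors of cyclin-dependent kinases were among them, by 4.67-fold and 4.5-fold.

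The promoters of 6 of these genes are shown because members of both lists moved together and the cell cycle promoter elements are short enough to read. They are, for each list, the 3 genes of smallest adjusted p with a single promoter in the table. A CCAAT box (CCAAT, or ATTGG on the other strand) binds the factor NF-Y, the cell cycle genes homology region (TTTGAA, or TTCAAA) is an element of mitotic promoters, and the E2F motif was searched as TTTGGCGC or TTTCCCGC (GCGCCAAA or GCGGGAAA on the other strand). The 250 bases before the start of each gene, from RefSeq on GRCm38.p6, are written 5′ to 3′ on the gene's strand, with letters of any of these motifs in capitals. Ube2c (chr2:164769679-164769928, plus strand), Cenpa (chr5:30666636-30666885, plus strand) and Kif23 (chr9:61946800-61947049, minus strand) are mitosis genes. Mcm6 (chr1:128359706-128359955, minus strand), Rfc4 (chr16:23127731-23127980, minus strand) and Mcm5 (chr8:75109259-75109508, plus strand) are replication genes.
Ube2c: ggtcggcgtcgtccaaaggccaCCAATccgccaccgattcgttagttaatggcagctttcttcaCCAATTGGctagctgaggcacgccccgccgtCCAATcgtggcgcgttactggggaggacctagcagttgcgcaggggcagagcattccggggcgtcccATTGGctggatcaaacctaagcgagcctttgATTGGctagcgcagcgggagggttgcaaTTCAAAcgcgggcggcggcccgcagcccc
Cenpa: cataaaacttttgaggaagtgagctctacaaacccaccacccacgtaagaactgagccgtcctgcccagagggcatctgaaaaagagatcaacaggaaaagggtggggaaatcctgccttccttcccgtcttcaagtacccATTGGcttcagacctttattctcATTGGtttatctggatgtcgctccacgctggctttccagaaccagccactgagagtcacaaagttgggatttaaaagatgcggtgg
Kif23: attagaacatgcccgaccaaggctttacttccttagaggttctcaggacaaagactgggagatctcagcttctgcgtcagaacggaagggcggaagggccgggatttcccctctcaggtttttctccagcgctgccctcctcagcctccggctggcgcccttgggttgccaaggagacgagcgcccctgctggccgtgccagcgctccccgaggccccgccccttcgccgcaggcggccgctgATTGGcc
Mcm6: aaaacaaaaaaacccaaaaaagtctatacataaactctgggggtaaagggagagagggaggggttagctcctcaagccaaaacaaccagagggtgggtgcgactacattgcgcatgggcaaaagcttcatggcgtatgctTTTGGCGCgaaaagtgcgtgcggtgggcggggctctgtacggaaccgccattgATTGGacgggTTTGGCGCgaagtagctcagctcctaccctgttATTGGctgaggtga
Rfc4: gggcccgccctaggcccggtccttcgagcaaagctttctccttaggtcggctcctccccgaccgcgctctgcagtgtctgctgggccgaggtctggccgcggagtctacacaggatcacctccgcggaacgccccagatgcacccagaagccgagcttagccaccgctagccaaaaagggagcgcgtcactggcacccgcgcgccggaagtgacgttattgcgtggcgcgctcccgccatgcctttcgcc
Mcm5: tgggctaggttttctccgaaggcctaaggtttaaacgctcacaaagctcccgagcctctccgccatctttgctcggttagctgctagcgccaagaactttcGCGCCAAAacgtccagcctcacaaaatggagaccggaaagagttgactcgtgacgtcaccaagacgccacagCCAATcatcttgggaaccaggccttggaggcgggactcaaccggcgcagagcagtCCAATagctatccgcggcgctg
Ube2c holds 6 CCAAT matches, some of them overlapping on the opposite strands, and 1 homology region. Cenpa holds 2 CCAAT matches and Kif23 1. Rfc4 holds 0 matches of any of these motifs, Mcm6 2 CCAAT and 2 E2F matches, and Mcm5 2 CCAAT and 1 E2F match. Over the lists, 27 of the mitosis and 23 of the replication genes matched a promoter of the table. At least 1 CCAAT was present in 79.3% of the 29 mitosis promoters and 57.1% of the 28 replication promoters, against 33.8% of all 32851 promoters. The homology region was present in 37.9%, 10.7% and 16% of them in turn, and an E2F motif in 0 of the mitosis promoters, 17.9% of the replication promoters and 1.3% of all. These shares describe letters in a window and not binding, and the promoters of a gene with several starts overlap.

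Transcription factors of the telencephalon, the forebrain division that gives rise to the SEZ, were higher in 12 of 17 and lower in 0, with a median difference of 1.80. Dlx1, a homeobox gene of GABAergic interneuron precursors, stood at 1749 and 1594 in SEZ_GFP and 45, 10, 7 and 35 in DIEC_GFP. The difference of 6.52 ± 0.74 (SE) was among the highest of all genes (adjusted p = 0.000249), although 2 of the 4 DIEC_GFP arrays lay at or under an intensity of 10, where values are near background. Its partner Dlx2 was 14.8-fold higher (472 and 417 against 21, 47, 33 and 25), and Dlx1as, the antisense transcript of the Dlx1 locus, was 53.6-fold higher. Dlx1 and Dlx1as overlap in the genome, and the reading strand of their probes was not checked. Meis2, a homeobox gene of striatal and olfactory precursors, stood at 2397 and 2980 against 118, 89, 64 and 116, with a difference of 4.83 ± 0.25 (SE) and the smallest adjusted p of the table beside Mcm6 (adjusted p = 6.48e-06). All 3 other probe sets of Meis2 passed as well. Gsx2, which patterns the lateral ganglionic eminence, was 9.51-fold and Lhx2, a cortical selector gene, 5.11-fold higher.

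Of 17 progenitor and neurogenic factors, some of them also in the list before, 10 were higher and 0 lower (6 without SEZ_GFP replicate 2). Insm1, a zinc finger factor of dividing neuronal progenitors, stood at 316 and 329 against 19, 28, 6 and 28 (adjusted p = 0.000608), and Hes6, a member of the hairy and enhancer of split family that favours differentiation, at 914 and 732 against 119, 49, 111 and 85 (adjusted p = 0.000616). The arrays of both genes were apart. Sp8, of olfactory bulb interneurons, stood at 493 and 179 against 9, 12, 11 and 12 (27.2-fold). Sox2, the factor shared by stem cells and astrocytes, did not pass (782 and 866 against 577, 656, 482 and 515, adjusted p = 0.143).

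**Figure D2:**
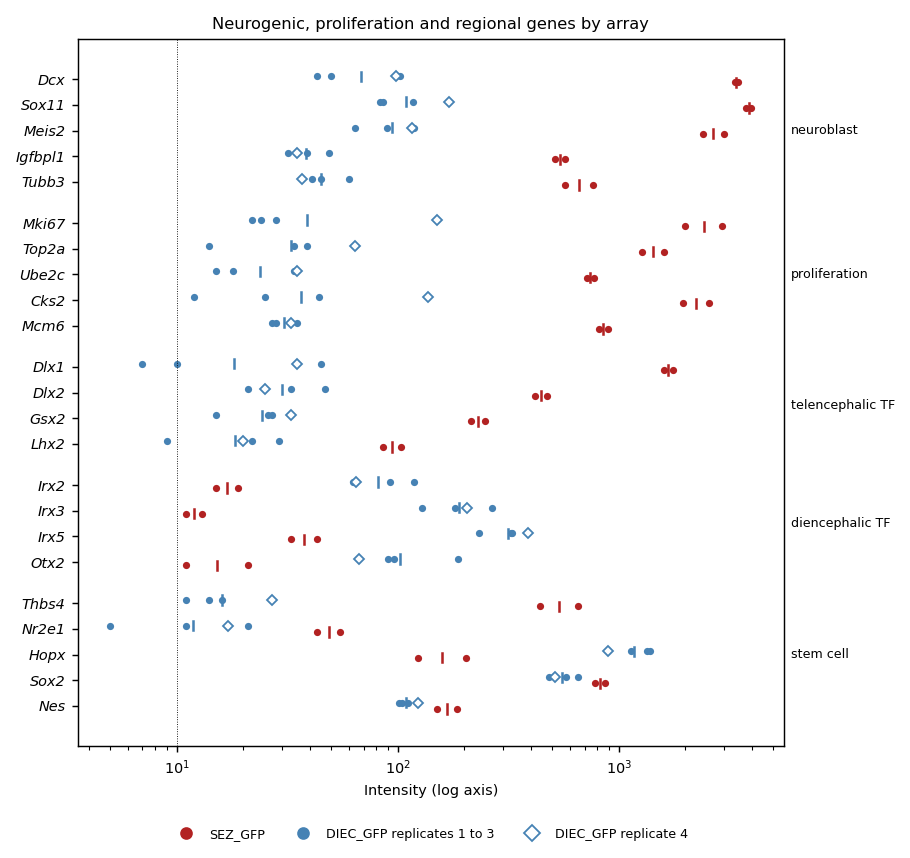
Intensity on each array (log axis) of neuroblast, transcription factor, cell cycle and stem cell genes, with 2 SEZ_GFP points and 4 DIEC_GFP points per gene. Dcx, Dlx1, Mki67 and Mcm6 are apart between the groups by more than an order of magnitude, whereas Sox2 and Nes lie close together.

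Most transcription factors of the diencephalon did not pass. Of 30 measured, 5 were lower in SEZ_GFP, 0 were higher and 25 did not pass, beside 7.05% of all genes lower. The median difference was -0.24, and 6 of the 30 stood under an intensity of 10 on all 6 arrays. Irx3, an Iroquois homeobox gene of the caudal forebrain, stood at 13 and 11 in SEZ_GFP and 129, 182, 266 and 206 in DIEC_GFP, 15.8-fold lower in SEZ_GFP (adjusted p = 0.00245). Irx2 of the same family stood at 19 and 15 against 92, 118, 63 and 65, 4.84-fold lower (adjusted p = 0.000292). The groups of both genes were apart. The other members past the threshold, Otx2 (-2.75), Nkx2-2 (-2.30) and Irx5 (-3.06), were lost when SEZ_GFP replicate 1 was left out (adjusted p = 0.113, 0.0537 and 0.158), and Otx2 also with the 3′ to 5′ covariate (0.0604). Without SEZ_GFP replicate 2 Nkx2-2 (0.13) and Irx5 (0.249) were lost, and Irx5 also without each DIEC_GFP array (0.0625 to 0.0752), with quantile normalization (0.0518) and with values under 10 set to 10 (0.0724). Tcf7l2, a thalamic factor, did not pass (adjusted p = 0.0806, and 0.0397 without DIEC_GFP replicate 4).

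Genes of neural stem cells and radial glia gave 5 higher and 3 lower calls of 26, beside 5.61% and 7.05% of all genes. The median difference was 0.42. The lower calls numbered 0 without probe sets marked as sharing sequence. Without SEZ_GFP replicate 1 only 1 was higher, and without replicate 2 there were 3. Thbs4, a thrombospondin of SEZ astrocytes, stood at 653 and 441 in SEZ_GFP and 16, 11, 14 and 27 in DIEC_GFP, 33.4-fold higher (adjusted p = 5.39e-05). The receptor inhibitor Lrig1, linked to stem cell quiescence, went the other way, at 107 and 132 against 2465, 2408, 2026 and 802 (-3.89, adjusted p = 0.000642). Without probe sets marked as sharing sequence another probe set stands for Lrig1, and its difference was 0.09. Hopx, a small homeodomain protein of radial glia and astrocytes, was 7.44-fold lower (203 and 123 against 1386, 1347, 1139 and 897, adjusted p = 0.000279). Nes, an intermediate filament of progenitors, stood at 150 and 185 against 104, 101, 111 and 123 (adjusted p = 0.0546), and Egfr, which marks activated stem cells and progenitors, at 549 and 489 against 172, 274, 374 and 143 (adjusted p = 0.074). Neither passed, although their arrays did not overlap, and Nes passed without DIEC_GFP replicate 4 (adjusted p = 0.0449) and Egfr without replicate 3 (0.0286). Vim, another filament gene of radial glia, did not pass either (0.65, adjusted p = 0.329).

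Astrocyte markers were lower in the SEZ cells or did not pass. Of 30, 12 were lower, 0 higher and 18 did not pass, and both SEZ_GFP arrays lay below all DIEC_GFP arrays for 20 of the 30, with a median difference of -1.24 (6 lower without SEZ_GFP replicate 2, and 5 with the 3′ to 5′ covariate). Over all genes, 16.4% had both SEZ_GFP arrays below all DIEC_GFP arrays. Slc1a2, the main glutamate transporter, stood at 6293 and 4465 in SEZ_GFP and 6353, 5228, 5974 and 2928 in DIEC_GFP. The groups overlapped (0.11, adjusted p = 0.908). The other glutamate transporter Slc1a3 (-0.45, adjusted p = 0.523), the connexin Gja1 (-0.46, adjusted p = 0.427), glutamine synthetase Glul (-0.42, adjusted p = 0.625) and the folate enzyme Aldh1l1 (-1.35, adjusted p = 0.0846) did not pass. Without DIEC_GFP replicate 4 Aldh1l1 passed (adjusted p = 0.0178). Both Aldh1l1 and Gja1 were below all DIEC_GFP arrays on both SEZ_GFP arrays. The summed intensity of the list was 50422 to 62162 in SEZ_GFP and 64164 to 114150 in DIEC_GFP, so transcripts of astrocytes were abundant in both sorts.

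Gjb6, the second astrocyte connexin, stood at 219 and 139 in SEZ_GFP and 2444, 3110, 2861 and 1050 in DIEC_GFP, 12.5-fold lower in SEZ_GFP (adjusted p = 0.000248). S100b, a calcium-binding protein of mature astrocytes, stood at 110 and 92 against 2435, 1679, 1768 and 703 (14.9-fold, adjusted p = 0.000623). Slc6a11, a GABA transporter, stood at 18 and 21 against 297, 308, 266 and 135 (12.3-fold, adjusted p = 0.000126). All 3 genes were apart between the groups, and DIEC_GFP replicate 4 was the lowest of its group in each. Aldh1a1, a retinaldehyde dehydrogenase, was at background in the SEZ cells, at 8 and 10 against 943, 761, 1339 and 177. It was 71.8-fold lower (adjusted p = 0.000285), and 64.2-fold with values under 10 set to 10. The bicarbonate cotransporter Slc4a4 (-2.73) and the serine transporter Slc7a10 (-2.55) were also lower, but neither passed with the 3′ to 5′ covariate (adjusted p = 0.0708 and 0.0988), nor Slc4a4 without SEZ_GFP replicate 2 (0.059).

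All 10 genes listed as enriched in astrocytes outside the telencephalon were lower in SEZ_GFP, with a median difference of -3.11, and 8 to 10 were when an array was left out. Agt, angiotensinogen, the precursor of the angiotensin peptides, stood at 76 and 27 in SEZ_GFP and 3126, 2332, 3133 and 1037 in DIEC_GFP. The groups lay far apart, with a difference of -5.61 ± 0.56 (SE) (adjusted p = 0.000141). Igsf1, a membrane glycoprotein of the immunoglobulin family, stood at 28 and 25 against 1072, 1270, 1404 and 559 (-5.26 ± 0.37 (SE), adjusted p = 2.13e-05). Neither of the 2 other probe sets of Igsf1 passed. Etnppl, an ethanolamine-phosphate lyase, stood at 44 and 25 against 1976, 1591, 1621 and 351 (34.9-fold lower, adjusted p = 0.00211). DIEC_GFP replicate 4 was again the lowest of its group in all 3. Slc6a9, a glycine transporter, was 5.89-fold, Itih3, a hyaluronan-binding plasma protein, 8.4-fold, and the matrix protein Sparc 8.9-fold lower. Irx2 and Slc6a11 belong to this list as well. Like the other lists it was chosen with earlier results of these data known, so its count is a description.

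Of 21 transmitter and ion transporters of astrocytes 12 were lower and 0 higher (7 without SEZ_GFP replicate 2). They included the mitochondrial glutamate carrier Slc25a18 (72 and 48 against 2308, 1326, 2096 and 705, 24.8-fold), the sodium-potassium-chloride cotransporter Slc12a2 (4.92-fold) and the lactate transporter Slc16a1 (13.6-fold). Of 8 connexin and junction genes 3 were lower, and the oligodendrocyte connexin Gjb1 was 4.96-fold lower (adjusted p = 0.00278, and 0.0515 without SEZ_GFP replicate 2). Fatty acid oxidation genes were lower in 8 of 22, with Hadh, a dehydrogenase of the pathway, at 1486 and 1210 against 3709, 3136, 2875 and 3230 (2.4-fold, adjusted p = 0.00232). That count fell without either SEZ_GFP array, and was 5 without DIEC_GFP replicate 1 and 4 without DIEC_GFP replicate 2 or 3. Fewer of all genes passed in these fits as well. Glycolysis and glycogen genes were lower in 7 of 21 (1 and 4 without SEZ_GFP replicates 2 and 1, 4 and 11 without DIEC_GFP replicates 1 and 4). Cholesterol synthesis and uptake genes were lower in 6 of 20 (2 without either SEZ_GFP array), and cholesterol export genes in 4 of 12 (2 without SEZ_GFP replicate 1 and 0 without 2). Of 23 amino acid and folate enzymes 0 were lower and 4 higher, of which Shmt1, a serine hydroxymethyltransferase that feeds nucleotide synthesis, stood at 180 and 205 against 66, 70, 57 and 57 (3.09-fold, adjusted p = 0.000888). That count was 1 without either SEZ_GFP array and 2 without DIEC_GFP replicate 2 or 3, and the lower calls numbered 1 without DIEC_GFP replicate 3 and 3 without 4.

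**Figure D3:**
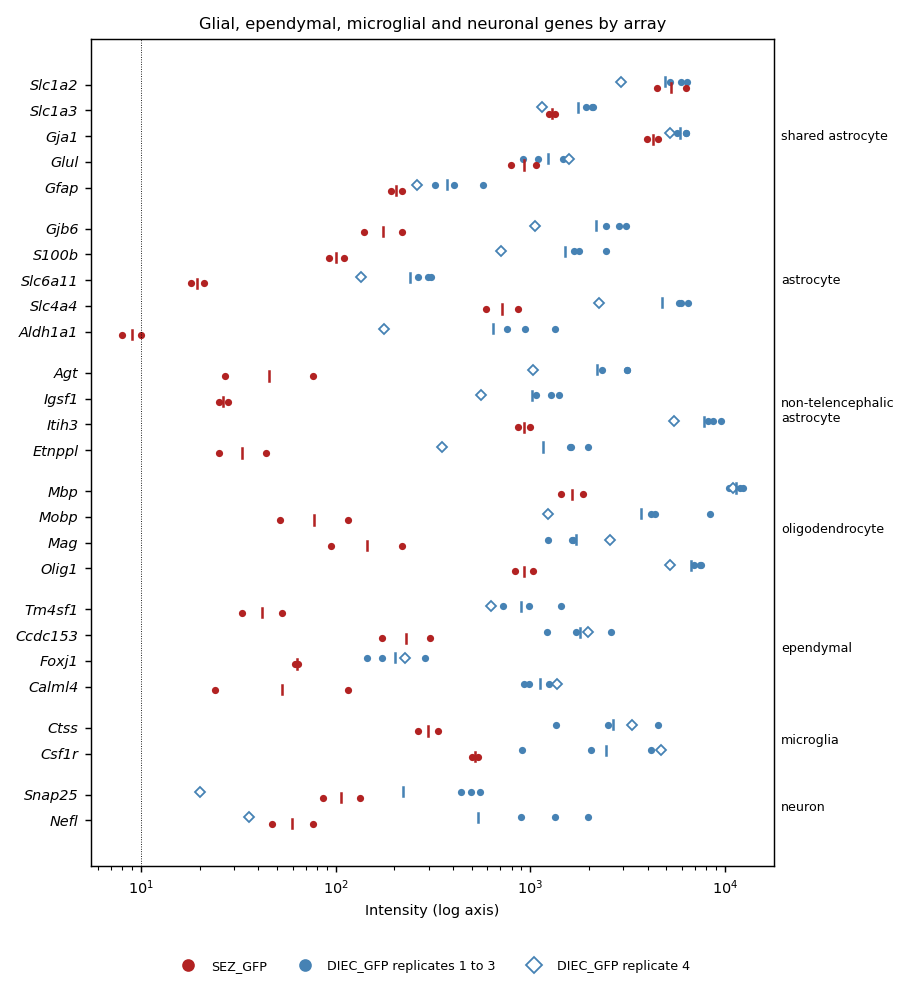
Intensity on each array (log axis) of astrocyte, oligodendrocyte, ependymal, microglial and neuronal genes, with 2 SEZ_GFP points and 4 DIEC_GFP points per gene. Slc1a2 and Glul overlap between the groups, Agt, Igsf1, Mobp and Tm4sf1 do not, and Snap25 and Nefl are low on 1 of the 4 DIEC_GFP arrays, replicate 4.

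Transcripts of myelinating oligodendrocytes were lower in SEZ_GFP for all 17 markers measured, with a median difference of -3.47. The summed intensity was 5683 to 8732 in SEZ_GFP and 43058 to 70899 in DIEC_GFP, and without SEZ_GFP replicate 2 7 of the 17 passed. Mbp, myelin basic protein, stood at 1854 and 1435 in SEZ_GFP and 12372, 11965, 10448 and 11012 in DIEC_GFP. The difference was -2.81 ± 0.18 (SE), 7-fold (adjusted p = 2e-05). Mobp, another myelin protein, stood at 116 and 52 against 8413, 4391, 4184 and 1228 (47.8-fold lower, adjusted p = 0.00019). Gpr37, a receptor of oligodendrocytes, stood at 18 and 12 against 401, 1983, 392 and 458 (adjusted p = 0.00028). In all 3 genes both SEZ_GFP arrays lay below every DIEC_GFP array. The cytoskeletal septin gene Septin4 was 18.5-fold, the protease Klk6 19.3-fold, and Ugt8a, which makes the myelin lipid galactosylceramide, 13.6-fold lower. Mag, an adhesion protein of myelin, stood at 219 and 95 against 1237, 1637, 1663 and 2572 (adjusted p = 0.00256, and 0.0574 without SEZ_GFP replicate 2). Ell2, a transcription elongation factor found among the lowest genes of the table, was 22.3-fold lower with values under 10 set to 10.

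Of 15 markers of oligodendrocyte progenitors 8 were lower and 1 higher (3 lower and 0 higher without SEZ_GFP replicate 1, 1 and 0 without 2; the higher call was lost too without DIEC_GFP replicate 2, 3 or 4). Bcas1, which marks newly forming oligodendrocytes, stood at 377 and 420 against 4997, 3991, 3701 and 2855 (9.57-fold lower, adjusted p = 0.00028). Olig1, a transcription factor of the lineage, was 7.25-fold lower (adjusted p = 0.00348, and 0.0565 without SEZ_GFP replicate 2). Pdgfra, the defining receptor of these progenitors, did not pass (595 and 670 against 2265, 1893, 1257 and 1003, adjusted p = 0.178), nor did Sox10 (241 and 247 against 539, 834, 697 and 2082, -1.88, adjusted p = 0.0748). Sox10 passed with the 3′ to 5′ covariate (-3.80, adjusted p = 0.0045), with array weights (adjusted p = 0.0284) and without the dimmest 50% of genes (adjusted p = 0.0322), and Pdgfra without the SEZ_CD24 arrays (adjusted p = 0.0267). Both were below all DIEC_GFP arrays in SEZ_GFP. The DIEC_GFP sort labelled astrocytes therefore held abundant oligodendrocyte transcripts, and their part in the other differences was not tested.

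Ependymal cells line the ventricles and carry motile cilia. Of 20 ependymal markers 17 were lower in SEZ_GFP and 0 higher, with a median difference of -2.34 (7 lower without SEZ_GFP replicate 2). The summed intensity was 1569 to 2749 in SEZ_GFP and 9082 to 13327 in DIEC_GFP. Tm4sf1, a membrane protein of the tetraspanin-like family, stood at 53 and 33 in SEZ_GFP and 979, 1434, 722 and 625 in DIEC_GFP, 21.3-fold lower (adjusted p = 6.67e-05). Neither of the 2 other probe sets of Tm4sf1 passed. Tm4sf1 also counts among the 4 lower genes of the reactive astrocyte list below. Foxj1, the master regulator of motile cilia, stood at 64 and 62 against 173, 144, 288 and 226 (3.19-fold lower, adjusted p = 0.00457, and 0.059 without SEZ_GFP replicate 2). Both genes were apart between the groups. The ciliary kinase Ak7 was 7.87-fold, the ciliary filament protein Tekt1 7.17-fold, Ccdc153 7.88-fold and the calmodulin-like gene Calml4 21.2-fold lower. Of 41 components of motile cilia 22 were lower and 0 higher (14 without SEZ_GFP replicate 2). Cfap161, a ciliary axoneme protein, stood at 29 and 17 against 409, 368, 549 and 432 (adjusted p = 3.6e-05), and the radial spoke gene Rsph4a at 17 and 19 against 183, 305, 125 and 172 (adjusted p = 0.000482). Their SEZ_GFP intensities were near background.

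The same genes were high in another sort of the SEZ. In the fit of all groups, SEZ_GFPprom exceeded SEZ_GFP in 479 genes (2.63% of 18193) and lay below it in 98 (0.539%). This comparison shares the SEZ_GFP arrays with the one above. Tm4sf1 was higher by 4.87 on the log2 scale with prominin in the gate (adjusted p = 4.06e-05), Cfap161 by 5.24 (adjusted p = 1.78e-05), Foxj1 by 3.73 (adjusted p = 5.67e-05) and Calml4 by 5.16 (adjusted p = 0.000603). The mean log2 intensity of Foxj1 in SEZ_GFPprom was 9.71 ± 0.40 (SD, n = 4) and in DIEC_GFP 7.65 ± 0.44 (SD, n = 4). It was 5.98 ± 0.03 for SEZ_GFP, 5.90 ± 0.29 for SEZ_Prom and 5.81 ± 0.32 for SEZ_CD24 (SD, n = 2 each). The sort gated on CD24, which the labels call ependymal, thus did not stand above SEZ_GFP in Foxj1. Mbp was 1.60 and Mobp 3.45 higher in SEZ_GFPprom (adjusted p = 0.000407 and adjusted p = 0.00661).

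Some neurogenic genes were lower in SEZ_GFPprom than in SEZ_GFP, namely Igfbpl1 by -1.94 (adjusted p = 0.00118), Pbx3 by -1.78 (adjusted p = 0.0144), Mfng by -1.55 (adjusted p = 0.0386) and Efnb2 by -1.25 (adjusted p = 0.0295). The matrix gene Fbln2 was lower as well (-1.93, adjusted p = 0.00176), and the astrocytic glutamate carrier Slc25a18 was higher (2.94, adjusted p = 0.00237). Other genes of these kinds did not pass. Dcx differed by -1.79 (adjusted p = 0.0762), Dlx1 by -1.44 (adjusted p = 0.402), Mki67 by -0.75 (adjusted p = 0.673) and Thbs4 by 0.94 (adjusted p = 0.302). Agt differed by 1.61 (adjusted p = 0.185), Igsf1 by 0.52 (adjusted p = 0.595) and Gjb6 by -0.03 (adjusted p = 0.993). In mean log2 intensity Agt stood at 11.11 ± 0.75 for DIEC_GFP and 7.12 ± 0.54 for SEZ_GFPprom (SD, n = 4 each). It stood at 5.87 ± 0.28 for SEZ_Prom, 5.50 ± 1.06 for SEZ_GFP and 4.92 ± 0.95 for SEZ_CD24 (SD, n = 2 each). The 4 SEZ sorts were all below the diencephalic cells for this gene. Aldh1a1 had mean log2 intensities of 9.33 ± 1.28 (SD, n = 4) in DIEC_GFP, 8.64 ± 0.96 (n = 2) in SEZ_CD24, 6.61 ± 0.77 (n = 2) in SEZ_Prom, 3.58 ± 0.64 (n = 4) in SEZ_GFPprom and 3.16 ± 0.23 (n = 2) in SEZ_GFP. Its mean in SEZ_CD24 was within 1 SD of that in DIEC_GFP.

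**Figure D4:**
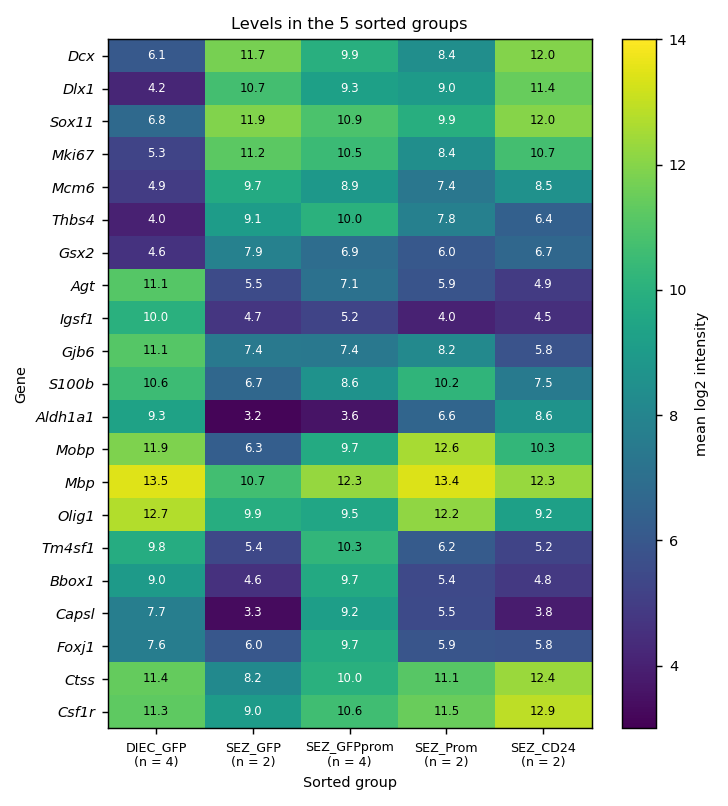
Mean log2 intensity of 21 genes in the 5 sorted groups, one gene per row, with the value printed in each cell and the number of arrays under each group. Agt and Igsf1 are high in DIEC_GFP alone, Tm4sf1, Bbox1, Capsl and Foxj1 in DIEC_GFP and SEZ_GFPprom, and Dcx, Dlx1, Sox11 and Mki67 in the SEZ groups.

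Markers of other cell types that the sorts could hold were read in the same way. Over all genes 7.05% were lower, so a single lower call in a list of this size is near that share. Microglia markers were lower in 6 of 16 (1 without either SEZ_GFP array, 3 without DIEC_GFP replicate 1), with a summed intensity of 1258 to 1575 in SEZ_GFP and 3293 to 14337 in DIEC_GFP. Ctss, a lysosomal protease of microglia, stood at 337 and 265 in SEZ_GFP and 4519, 2501, 1356 and 3313 in DIEC_GFP (8.93-fold lower, adjusted p = 0.00111). Csf1r, the receptor that microglia need to survive, was 4.71-fold lower (adjusted p = 0.0186, 0.102 and 0.144 without SEZ_GFP replicates 1 and 2, 0.114 in a fit of SEZ_GFP and DIEC_GFP alone, and 0.137 when the 3′ to 5′ ratio was a covariate). Of 13 endothelial markers 2 were lower (1 without SEZ_GFP replicate 1 or DIEC_GFP replicate 1, 3 or 4, and 0 without SEZ_GFP replicate 2), at summed intensities of 610 to 772 and 1554 to 1992. Of 15 mural and fibroblast markers 1 was lower (0 without SEZ_GFP replicate 2 and 2 without DIEC_GFP replicate 2), at 1072 to 1209 and 1188 to 2024. No erythrocyte gene of 3 passed, at 48 to 53 and 48 to 103. Of 11 choroid plexus markers 2 were lower (1 without SEZ_GFP replicate 1), among them the chloride channel protein Clic6 (18 and 9 against 423, 237, 155 and 109, adjusted p = 0.000623). Ttr, the most abundant transcript of the choroid plexus, varied within both groups, at 9146 and 436 against 1132, 1957, 772 and 8456 (adjusted p = 1).

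Mature neuron genes gave 2 higher calls and 1 lower call of 16, beside 5.61% and 7.05% of all genes. Their summed intensities were 8598 to 9010 in SEZ_GFP and 1522 to 10083 in DIEC_GFP. None of these 3 calls passed without SEZ_GFP replicate 1 or 2 or DIEC_GFP replicate 2, and without DIEC_GFP replicate 4 5 members were lower. The synaptic gene Snap25 stood at 133 and 86 in SEZ_GFP and 438, 552, 498 and 20 in DIEC_GFP (adjusted p = 0.637, and 0.00901 without DIEC_GFP replicate 4), and the neurofilament gene Nefl at 76 and 47 against 1978, 1335, 890 and 36 (adjusted p = 0.133, and 0.000759 without that array). Among 14 markers of striatal projection neurons 5 were higher and 1 lower (2 and 0 without SEZ_GFP replicate 1, 3 and 0 without 2, and 0 lower without DIEC_GFP replicate 1, 2 or 3). Bcl11b, a transcription factor of these neurons and their precursors, stood at 617 and 870 against 44, 45, 39 and 22 (20.3-fold, adjusted p = 0.00105), and all 3 of its other probe sets passed. The G protein subunit Gng7 was 7.63-fold higher (718 and 556 against 87, 53, 92 and 111), but did not pass with the 3′ to 5′ covariate (adjusted p = 0.0567). Of 19 diencephalic neuron markers 2 were lower (0 without either SEZ_GFP array or without DIEC_GFP replicate 1 or 2, and 1 without 3).

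The GABA system gave 3 higher and 2 lower calls of 14. Gad1, which makes GABA, stood at 733 and 1199 in SEZ_GFP and 145, 166, 182 and 20 in DIEC_GFP (9.69-fold higher, adjusted p = 0.0144, 0.0631 and 0.156 without SEZ_GFP replicates 1 and 2, and 0.103 in a fit of SEZ_GFP and DIEC_GFP alone). Gad2, the second such enzyme, was 4.03-fold higher (adjusted p = 0.00581, and 0.0708 without SEZ_GFP replicate 2). The astrocytic transporter Slc6a11 was among the lower. Without SEZ_GFP replicate 1 the counts were 1 and 1, without 2 they were 0 and 1, and the lower calls numbered 1 without DIEC_GFP replicate 1, 2 or 3 and 5 without 4.

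Signalling pathways moved member by member, beside 5.61% of all genes higher and 7.05% lower. Of 25 Notch pathway genes 4 were higher and 3 lower (0 lower without SEZ_GFP replicate 2). Mfng, a glycosyltransferase that tunes Notch, stood at 319 and 333 in SEZ_GFP and 62, 35, 47 and 40 in DIEC_GFP (7.25-fold higher, adjusted p = 0.000471), and the ligand Dll3, found in neuronal progenitors, at 219 and 233 against 47, 66, 69 and 63 (3.73-fold higher, adjusted p = 0.00222). The groups were apart for both. The effectors Heyl (5.35-fold, adjusted p = 0.00438) and Hey1 (3.46-fold, adjusted p = 0.00474) were lower, and both were lost without SEZ_GFP replicate 2 (adjusted p = 0.0774 and 0.0873) and when the 3′ to 5′ ratio was a covariate (0.217 and 0.183). Of 27 BMP and TGF-beta genes 5 were lower and 0 higher (1 without SEZ_GFP replicate 1, 2 without 2). The ligand Bmp4, which favours glial fates, stood at 27 and 34 against 221, 111, 186 and 126 (5.11-fold lower, adjusted p = 0.00405, 0.0512 without SEZ_GFP replicate 1, and 0.0539 when the 3′ to 5′ ratio was a covariate).

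Of 31 Wnt pathway genes 4 were higher and 1 lower (2 higher without SEZ_GFP replicate 1, 1 higher and 0 lower without 2, and 2, 2 and 3 lower without DIEC_GFP replicates 1, 3 and 4). Dkk3, a secreted member of the Dickkopf family, stood at 1422 and 915 against 231, 157, 118 and 191 (6.75-fold higher, adjusted p = 0.000542). Of 15 hedgehog genes 2 were higher and 2 lower (0 and 1 without SEZ_GFP replicate 2). Ptch1, the receptor and a target of the pathway, stood at 756 and 704 against 2978, 4046, 3815 and 1518 (3.96-fold lower, adjusted p = 0.00245). With the 3′ to 5′ covariate its difference was -1.30 instead of -1.99 and did not pass (adjusted p = 0.122). Gli1, another common target, did not pass (48 and 48 against 89, 62, 152 and 74, adjusted p = 0.205). The second lower call was the gene of a hedgehog-binding protein (-3.59, adjusted p = 0.00951), none of whose 3 other probe sets passed. The 2 higher members differed by 1.05 and 2.07. Of 28 FGF and EGF genes 5 were lower and 0 higher (2 without either SEZ_GFP array, and 1 higher without DIEC_GFP replicate 3). The ligand Tgfa stood at 155 and 61 against 581, 963, 513 and 803 (7.13-fold lower, adjusted p = 0.000888). Neither of its 2 other probe sets passed, and its difference ran from -3.51 to -0.74 across the alternative settings. Of 20 retinoid and thyroid hormone genes 4 were lower (2 without either SEZ_GFP array or DIEC_GFP replicate 2), with Aldh1a1 and the retinal reductase Dhrs3 (57 and 70 against 219, 272, 401 and 212, adjusted p = 0.000888) among them.

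Matrix and guidance molecules held calls of both signs, beside 5.61% of all genes higher and 7.05% lower. Of 31 matrix and proteoglycan genes 3 were higher and 6 lower (3 lower without SEZ_GFP replicate 1, 2 without 2). The higher genes included Thbs4 and the fibulin Fbln2 (155 and 150 against 23, 30, 33 and 28, 5.4-fold, adjusted p = 0.000248), and the lower genes Sparc. Of 31 axon guidance genes 6 were higher and 7 lower (3 lower without SEZ_GFP replicate 1 or DIEC_GFP replicate 2, 3 higher and 1 lower without SEZ_GFP replicate 2). Efnb2, an ephrin ligand found in neuroblasts, stood at 574 and 512 in SEZ_GFP and 79, 42, 45 and 62 in DIEC_GFP (9.83-fold higher, adjusted p = 6.67e-05). The semaphorin receptor Plxna2 was 7.02-fold and the ephrin Efnb1 3.1-fold higher. Sema6d, a membrane semaphorin, was lower at 274 and 429 against 2190, 3552, 1851 and 1921 (6.69-fold, adjusted p = 0.000187).

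Of 20 interferon and antigen presentation genes 6 were lower and 0 higher (3 without SEZ_GFP replicate 1, 2 without 2). The class II genes H2-Aa (18 and 27 against 198, 259, 282 and 163, adjusted p = 0.000118) and H2-Ab1 (24 and 30 against 100, 119, 173 and 139, adjusted p = 0.000741), which present antigen in microglia and macrophages, were apart between the groups, beside the microglial transcripts above. Of 16 genes of reactive astrocytes 4 were lower and 0 higher (2 without either SEZ_GFP array or DIEC_GFP replicate 2), with the protease inhibitor Serpina3n at 152 and 108 against 658, 846, 783 and 456 (5.21-fold, adjusted p = 0.00139).

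Genes at background in one of the groups were kept apart, since the size of their difference depends on that background. Past the threshold 44 genes had a mean under 10 in SEZ_GFP and 30 a mean under 10 in DIEC_GFP, and values under 10 were set to 10 for their folds. The adjusted p beside such a fold is that of the main fit, in which no value was changed. Cdca5, sororin, which holds sister chromatids together, stood at 879 and 714 in SEZ_GFP and 9, 7, 7 and 10 in DIEC_GFP, 79.2-fold higher (adjusted p = 0.000141). Adcy8, a calcium-stimulated adenylyl cyclase, stood at 11 and 8 against 257, 372, 237 and 133, 22.3-fold lower (adjusted p = 9.49e-05). Both rose far above background in the other group. Capsl, a calcium-binding protein, was 19.8-fold lower (adjusted p = 7.9e-05), and it was higher by 5.85 in SEZ_GFPprom than in SEZ_GFP (adjusted p = 1.78e-05). The large lipoprotein receptor Lrp1b was 14.5-fold lower (adjusted p = 0.000567). Bmper, a secreted BMP-binding protein, stood at 128 and 116 against 7, 22, 7 and 8, 10-fold higher (adjusted p = 0.00266).

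The counts of several lists moved with other settings. With the 3′ to 5′ covariate the members lower in SEZ_GFP numbered 1 instead of 8 for fatty acid oxidation, 1 instead of 6 for microglia, 2 instead of 6 for cholesterol synthesis, 3 instead of 7 for glycolysis, 4 instead of 8 for oligodendrocyte progenitors, 0 instead of 3 for Notch, 1 instead of 5 for BMP and TGF-beta, 3 instead of 6 for matrix, 2 instead of 4 for retinoid and thyroid hormone genes, and 0 instead of 2 for diencephalic neurons. The members higher numbered 6 instead of 10 for regulators of cycle entry and exit, 1 instead of 4 for Wnt, 1 instead of 4 for amino acid and folate enzymes, 3 instead of 5 for striatal neurons and 0 instead of 2 for hedgehog genes. Without probe sets marked as sharing sequence, 1 instead of 6 interferon and antigen presentation genes, 0 instead of 3 stem cell and radial glia genes, 3 instead of 5 FGF and EGF genes and 2 instead of 4 retinoid and thyroid hormone genes were lower, and 6 instead of 10 chromatin regulators were higher. Without the dimmest 50% of genes, 7 instead of 12 telencephalic factors were higher and 2 instead of 5 diencephalic factors lower. The counts of the neuroblast, mitosis, DNA replication, mature oligodendrocyte, ependymal and non-telencephalic astrocyte lists stayed within 1.5 times of the main ones under all settings but those that left out an array.

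**Figure D5:**
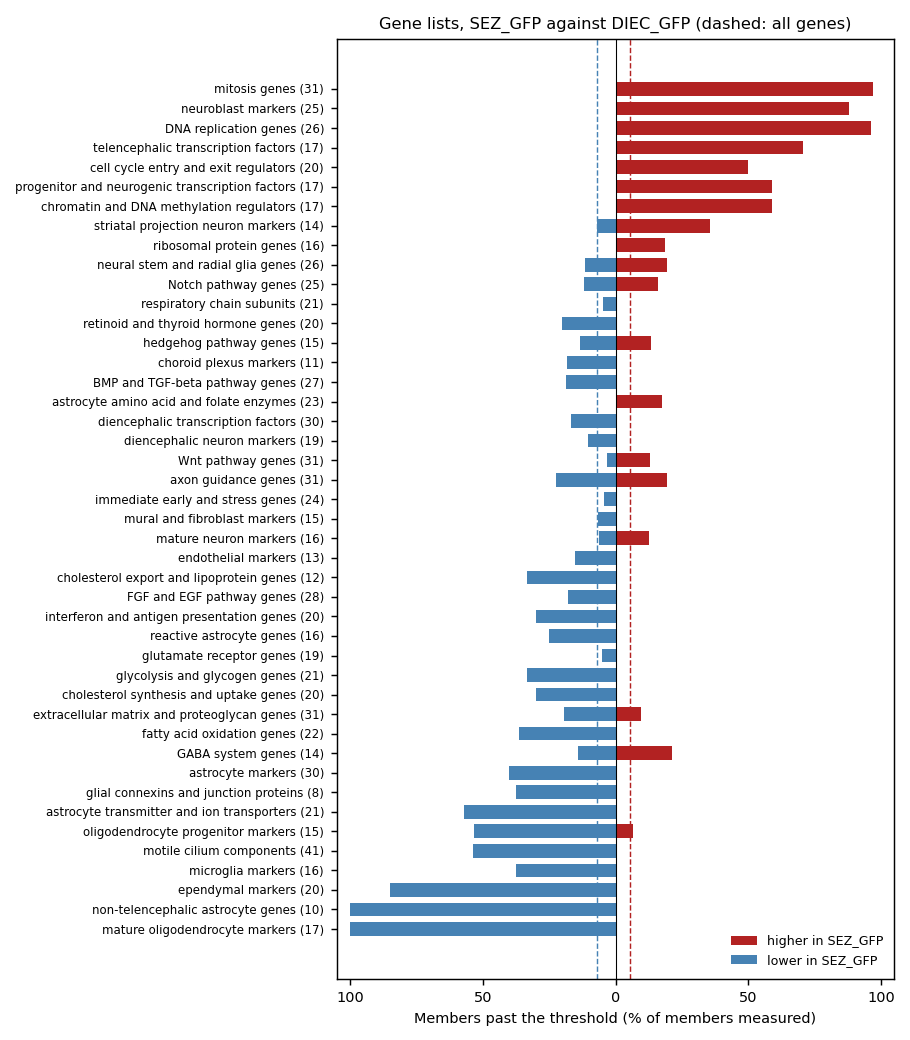
Share of the measured members of each list of 8 or more genes that passed the threshold, higher in SEZ_GFP to the right and lower to the left, with the number measured in parentheses and dashed lines at 5.61% and 7.05%, the shares of all genes. Mitosis, DNA replication and neuroblast genes reach furthest right, and mature oligodendrocyte, non-telencephalic astrocyte and ependymal genes furthest left. The lists were chosen with earlier results of these data known.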

How the data were processed

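The deposited table holds intensity values that the authors made by RMA, per the submitters' processing notes. They are whole numbers on a linear scale, and log2 was taken with no pseudocount. Per the labels' protocols, total RNA was column-purified, treated with DNase and amplified in 2 rounds, and such amplification can favour 3′ ends. Of 45101 probe sets, 64 were controls, 932 had several symbols and 9160 none. These were left out, and each gene was read by its brightest probe set, which gave 18193 genes. Of the named genes past the threshold 68 had more than 1 probe set. For 32 of them every other set passed with the same sign, and for 0 did any pass with the opposite sign. No other set passed for Tgfa, Igsf1, Tm4sf1, Kif23, Lrp1b, Heyl, Slc6a11, Slc6a9, S100b, Insm1, Slc16a1, Ell2 and Gpr50, among others.

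A single limma fit (version 3.58.1, R 4.3.3; lmFit, contrasts.fit, eBayes) took all 14 arrays with a mean per group and left 9 residual degrees of freedom. Its two-sided p-values were adjusted across the 18193 genes (Benjamini-Hochberg, threshold 0.05). Folds are powers of the log2 difference. The code was tested on simulated data. Named genes were drawn from the 12 highest and 12 lowest differences with both means at 10 or more, the 8 brightest per direction with the dimmer mean under 10, the sorting genes, and up to 6 members per list with the smallest adjusted p. Defining markers that did not pass, Foxj1, Tubb3, Mag, Calml4, Lhx2, Hey1, Csf1r, Xist and some examples among these were chosen after their values were seen. The members and the 46 lists were chosen with earlier results of these data known. The alternatives were other normalizations, filters on dim genes, pseudocounts, probe set rules, fits, a replicate block, array weights, the 3′ to 5′ covariate, and leaving out arrays. Some list members were not analysed here.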

Additional observations from a re-analysis of the deposited data

Results flagged for a closer look

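Within the 4 DIEC_GFP arrays, 9 of the 135 genes named in the text had an array far from the other 3 by Dixon's criterion. Chance alone flags about 1 in 20 groups. The array was replicate 4 for 7 of the 9 genes. It was low for the synaptic gene Snap25 (20 against 438 to 552), the GABA-synthesizing enzyme Gad1 (20 against 145 to 182), and the astrocyte genes Etnppl (351 against 1591 to 1976), Slc4a4 (2261 against 5814 to 6449), Slc7a10 (587 against 1338 to 1373) and Slc1a3 (1151 against 1922 to 2109). It was high for the proliferation antigen Mki67 (151 against 22 to 28). Replicate 2 was high for the oligodendrocyte receptor Gpr37 (1983 against 392 to 458) and for the BMP-binding protein Bmper (22 against 7 to 8). The 2 SEZ_GFP arrays are too few for such a comparison.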

How the results depend on the processing

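Counts are given as genes past the threshold, then higher and lower in SEZ_GFP. Leaving out an array gave 719 to 2690 genes, 348 to 1202 of them higher and 371 to 1488 lower, the lowest without SEZ_GFP replicate 2. Array weights gave 3558, 1602 and 1956, and the 3′ to 5′ covariate 1296, 556 and 740. A fit of SEZ_GFP and DIEC_GFP alone gave 663 higher genes. The other normalizations, filters, scales and probe set rules stayed within 1.5 times of the main counts. For arrays of the 2 groups that share a replicate number, deviations from the group means correlated at 0.0033 and -0.046. The deviations of the 2 SEZ_GFP arrays mirror each other, so these values cannot show whether the numbers pair the samples. The limma fit with a replicate block gave 2130 genes, 905 higher and 1225 lower, and lost Cd24a (adjusted p = 0.0962). Of the 111 named calls, 12 were lost with the 3′ to 5′ covariate (Bmp4, Cd24a, Csf1r, Gng7, Gria1, Hey1, Heyl, Otx2, Ptch1, Rpl22, Slc4a4 and Slc7a10), 7 without SEZ_GFP replicate 1 and 13 without 2. Signs turned for Lrig1 without probe sets of shared sequence (0.092), and for genes that had not passed. These were Prom1 without SEZ_GFP replicate 2 (-0.10, against 0.41 without replicate 1, of unchanged sign), Slc1a2, which ranged from -0.14 (without DIEC_GFP replicate 4 or SEZ_GFP replicate 1) to 0.36 (without SEZ_GFP replicate 2), and Snap25 (1.65) and Nefl (0.30) with the covariate. Ttr turned with cyclic loess (-0.015), the mean of probe sets (-0.079), the replicate block (-0.13), the covariate (-3.88), and without DIEC_GFP replicate 1 (-0.23) or 3 (-0.41) or SEZ_GFP replicate 1 (-2.16), against 2.23 without SEZ_GFP replicate 2. The causes were not tested. Probe sets under an intensity of 10 are near background and limit what can be said of dim genes.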

Other observations

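Several lists showed few calls. Over all genes 5.61% were higher and 7.05% lower, so a single call in a list of this size is near the share of all genes. Of 21 respiratory chain subunits 1 was lower and 0 higher in SEZ_GFP, with a median difference of 0.02, and the counts ran from 0 to 2 in each direction when an array was left out. Of 16 ribosomal protein genes 3 were higher and 0 lower, with a median of 0.55 (1 higher without either SEZ_GFP array). Rpl22, of the large ribosomal subunit, stood at 5739 and 5340 in SEZ_GFP and 1828, 1267, 2429 and 2337 in DIEC_GFP (2.91-fold higher, adjusted p = 0.00179 by limma). With the covariate it did not pass (adjusted p = 0.0747) and 0 of the 16 were higher. Of 19 glutamate receptor genes 1 was lower, the AMPA receptor subunit Gria1, at 66 and 94 against 1491, 583, 833 and 379 (adjusted p = 0.00291). With the 3′ to 5′ covariate its difference was -1.85 instead of -3.20 and did not pass (adjusted p = 0.156). Without DIEC_GFP replicate 3 or 4 2 of them were lower. Of 24 immediate early and stress genes 1 was lower, and the count was 0 without either SEZ_GFP array or DIEC_GFP replicate 1, 2 or 3. None of 4 sex-linked genes passed, and 1 was lower without DIEC_GFP replicate 4.

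Among the lowest genes of the table were also some of no list. Bbox1, the last enzyme of carnitine synthesis, stood at 23 and 24 in SEZ_GFP and 594, 710, 339 and 446 in DIEC_GFP (21.4-fold lower, adjusted p = 0.000126), and was higher by 5.15 in SEZ_GFPprom than in SEZ_GFP (adjusted p = 5.99e-05). Gpr50, an orphan receptor related to the melatonin receptors and found in hypothalamic tanycytes, stood at 13 and 13 against 493, 482, 135 and 380 (25.6-fold lower, adjusted p = 0.000389). The membrane collagen Col23a1 was 26.8-fold lower with values under 10 set to 10. For each of the 3 genes both SEZ_GFP arrays lay below all DIEC_GFP arrays.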
